A study of Mus musculus with 35 samples.

Results

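The 8 transcripts described here were those of the MHC class II genes H2-Aa, H2-Ab1, H2-Eb1, H2-DMa, H2-DMb1 and H2-Ob, of Cd74 and of Ciita. They were chosen by name out of the 21236 genes in the table of counts, and all 8 were found there. RNA was sequenced from microglia that had been sorted by flow cytometry from midbrain (n = 12), striatum (n = 12) and prefrontal cortex (PFC, n = 11). They came from 12 mice, 6 male and 6 female, with the regions taken from the same mice. The PFC of 1 male was missing. Every mouse carried both Tmem119-2A-CreERT2 and Ai14(RCL-tdTomato)-D, had received tamoxifen, and was 17 to 18 weeks old, so the regions and sexes shared genotype and treatment and no untreated or reporter-free group was part of the design. In these mice the promoter of Tmem119, a gene of parenchymal microglia, drives a Cre recombinase that is active after tamoxifen, and cells in which it acted become red, so the label depends on use of Tmem119 at that time.

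MHC class II molecules are pairs of an alpha and a beta chain that carry peptides from ingested proteins to the cell surface for recognition by CD4+ T cells. H2-Aa and H2-Ab1 encode the chains of I-A, and H2-Eb1 encodes the beta chain of I-E. Cd74, the invariant chain, fills the groove of new class II molecules and guides them to endosomes, H2-DM (H2-DMa and H2-DMb1) there exchanges its remnant for peptide, and H2-O, of which H2-Ob is the beta chain, restrains H2-DM. Ciita is the coactivator that turns on class II promoters, on which the RFX complex, CREB and NF-Y sit at the X and Y boxes. Homeostatic microglia hold little class II, which is known to rise on activation and with interferon gamma.

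In the GRCm38 assembly with GENCODE M21, 6 of the 8 genes lay within the MHC on chromosome 17, H2-DMa at chr17:34119541-34139101, H2-DMb1 at chr17:34153072-34160230, H2-Ob at chr17:34238903-34254414, H2-Ab1 at chr17:34257689-34269419, H2-Aa at chr17:34282744-34287823 on the minus strand and H2-Eb1 at chr17:34305867-34316674. Ciita lay at chr16:10480059-10528418 and Cd74 on another chromosome. Because the use of strand in counting is not given in the sources used here, reads of H2-DMa and Brd2, whose exons overlap by 360 bases on opposite strands, and of Ciita and Dexi, which overlap by 329, may be mixed. H2-DMb1 has a closely similar neighbour, H2-DMb2, and reads shared between them make the values of both uncertain.

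RefSeq promoter sequences (GRCm38.p6, from 250 bases before to 50 after the start) were at hand for H2-DMa, H2-DMb1, H2-Ob, H2-Aa and H2-Eb1. The 4 promoters below are shown because H2-Eb1 and H2-Aa moved together between samples while H2-DMb1 and H2-Ob did not move with them. Capitals mark an X box type motif (AG, any 2 bases, AC, any base, GATG) and the letters ATTGG (the core of a Y box, CCAAT on the other strand), both searched on both strands, and the motifs do not overlap.
H2-Eb1, chr17:34305617-34305916, plus strand: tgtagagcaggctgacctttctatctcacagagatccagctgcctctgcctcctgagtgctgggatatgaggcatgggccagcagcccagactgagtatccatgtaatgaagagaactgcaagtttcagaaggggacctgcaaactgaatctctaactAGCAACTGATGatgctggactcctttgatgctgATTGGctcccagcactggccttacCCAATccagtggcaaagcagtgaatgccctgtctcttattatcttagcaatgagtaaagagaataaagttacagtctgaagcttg
H2-DMb1, chr17:34152941-34153240, plus strand: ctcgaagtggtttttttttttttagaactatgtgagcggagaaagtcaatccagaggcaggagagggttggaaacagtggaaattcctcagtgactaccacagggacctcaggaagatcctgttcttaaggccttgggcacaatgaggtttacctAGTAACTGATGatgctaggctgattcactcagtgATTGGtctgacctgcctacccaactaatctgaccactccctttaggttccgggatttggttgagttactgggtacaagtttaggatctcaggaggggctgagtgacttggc
H2-Aa, chr17:34287774-34288073, minus strand: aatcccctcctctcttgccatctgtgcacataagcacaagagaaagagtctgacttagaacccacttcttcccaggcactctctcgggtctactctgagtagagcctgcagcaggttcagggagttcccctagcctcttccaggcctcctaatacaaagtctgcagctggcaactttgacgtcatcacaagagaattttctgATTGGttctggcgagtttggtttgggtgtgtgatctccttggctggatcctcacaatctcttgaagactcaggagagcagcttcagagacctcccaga
H2-Ob, chr17:34238655-34238954, plus strand: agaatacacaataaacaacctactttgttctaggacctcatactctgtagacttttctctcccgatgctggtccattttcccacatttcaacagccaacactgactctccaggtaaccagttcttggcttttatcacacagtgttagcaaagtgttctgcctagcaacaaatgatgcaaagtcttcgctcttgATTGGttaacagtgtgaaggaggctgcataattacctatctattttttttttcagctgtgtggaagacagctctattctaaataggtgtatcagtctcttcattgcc
The X box type motif was found in H2-Eb1, at position -92 from the start, and in H2-DMb1, at -95, and in 0.968% of all 32851 promoters of this length. ATTGG was found in all 4, at -59 in H2-Eb1, -61 in H2-DMb1, -57 in H2-Ob and -48 in H2-Aa, and in 37.4% of all promoters, with both motifs together in 0.387%. H2-Eb1 held a further copy on the other strand at -35. As searched, the spaced pair was held by a transcript that spread widely between samples, H2-Eb1, and by one that hardly did, H2-DMb1. The search asked for every fixed letter, so a promoter without a match may still hold an X box that differs from the motif. H2-DMa, also steady between samples and not shown, held no X box type motif in the sequences at hand, chr17:34122582-34122881 and chr17:34125268-34125567. The latter held ATTGG at -198. Both lay inside the annotated gene, and other starts of H2-DMa were not searched.

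Total counts ran from 37680501 to 54131421 per sample, and 3 counts, taken as the floor of detection, corresponded to between 0.0561 and 0.0789 CPM, where CPM is the counts-per-million value after scaling with TMM factors. This floor covers counting error only. The sorted cells had the profile of microglia, with the sum of 10 microglia markers (Tmem119, P2ry12, Cx3cr1 and others) between 39310 and 49540 CPM in every sample. A column of the table is named for the PFC of mouse 3 but belongs by its label to the striatum of that mouse, and no call on a member changed without it. The midbrain samples of mouse 6, a female, and mouse 11, a male, stood apart from the other 10 midbrain samples in the class II transcripts, so results that rest on them are given with and without them.

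The class II chains and Cd74 were lowest in PFC, intermediate in striatum and highest in midbrain, and within each region they differed many-fold between mice. H2-Ab1 ran from 15.0 CPM through a median of 22.3 to 40.6 in PFC, from 15.96 through 37.3 to 97.6 in striatum, and from 35.98 through 85.1 to 1187 in midbrain. The highest midbrain value was that of mouse 6, followed by mouse 11 at 389.5 CPM, and the other 10 midbrain samples lay between 35.98 and 158.6. Hence 10 of the 12 midbrain samples exceeded the highest PFC sample, while 5 exceeded the highest striatum sample. In bulk RNA such as this, more cells of a type and more RNA per cell cannot be told apart.

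H2-Aa, the alpha chain that pairs with H2-Ab1, had a lower level and a wider range. It ran from 0.292 CPM through a median of 2.67 to 12.5 in PFC, from 0.953 through 9.94 to 32.1 in striatum, and from 5.51 through 28.8 to 582.6 in midbrain. Mouse 6 was again highest in midbrain, and mouse 11 followed with 135.5 CPM.

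H2-Eb1 followed the same order, with 0.438 CPM, a median of 2.07 and 5.64 in PFC, 0.934, 6.59 and 22.3 in striatum, and 4.97, 18.2 and 388.9 in midbrain. Of the summed H2-Eb1 CPM of the 12 midbrain samples, mouse 6 held 60.5% and mouse 11 held 14.0%. Without these 2 samples the midbrain mean fell from 53.6 ± 108 CPM (SD, n = 12) to 16.4 ± 10.7 (SD, n = 10).

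Cd74 was the most abundant of the 4, with 14.95 CPM, a median of 40.1 and 71.6 in PFC, 36.1, 77.1 and 184 in striatum, and 79.8, 125 and 1498 in midbrain. Every midbrain sample exceeded every PFC sample, so the groups did not overlap, whereas midbrain and striatum overlapped and 3 of the 12 midbrain samples lay above the highest striatum sample.

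**Figure D1:**
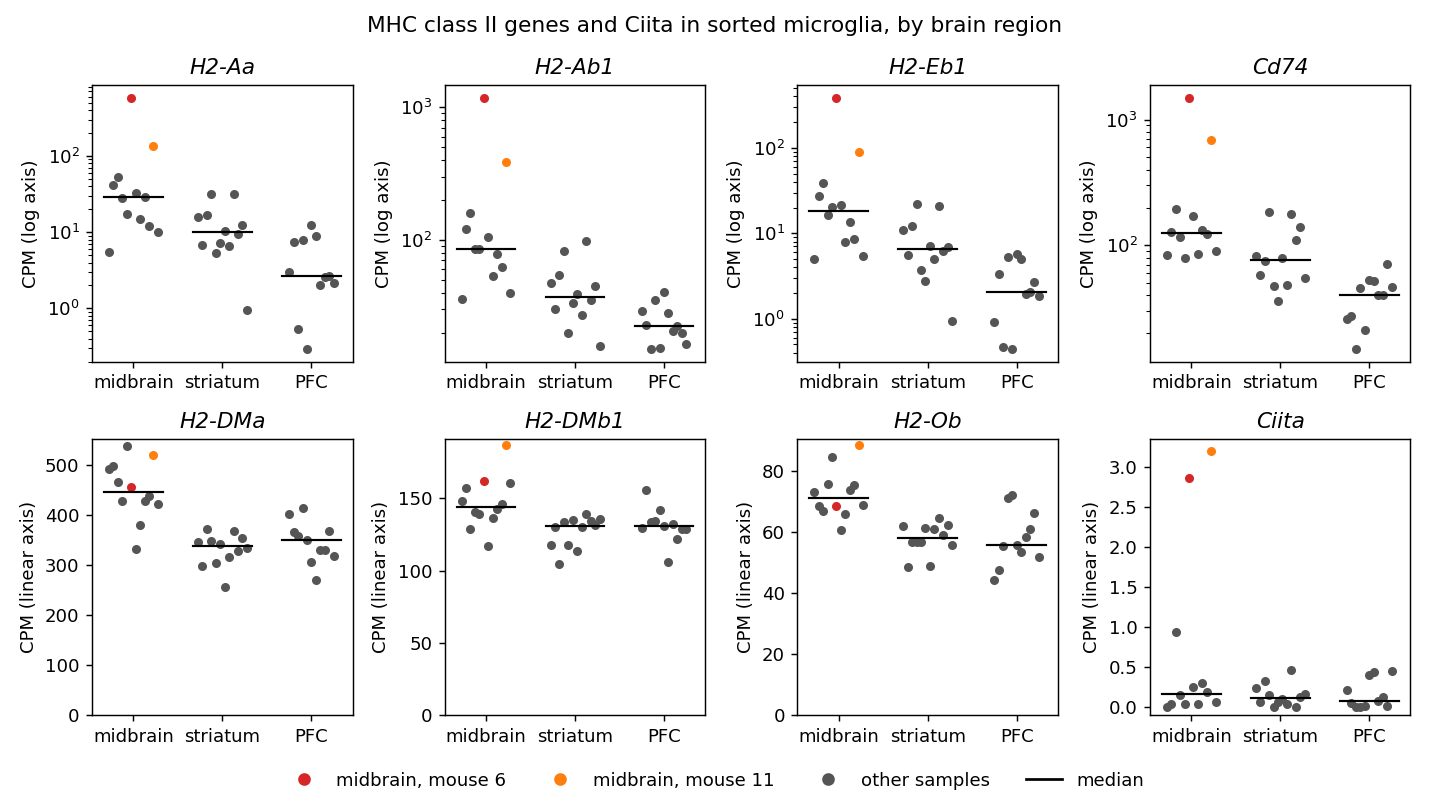
CPM of each of the 8 transcripts in every sample by brain region; each point is 1 sample, the line is the median, the axis is logarithmic for H2-Aa, H2-Ab1, H2-Eb1 and Cd74 and linear for the others. The midbrain samples of mouse 6 (1187 CPM of H2-Ab1) and mouse 11 (389.5 CPM) lie above all others in the upper row and in Ciita, and inside the midbrain range of H2-DMa.

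The transcripts of the peptide-loading machinery were steady in comparison. H2-DMa ran from 272 CPM through a median of 351 to 415 in PFC, from 258 through 339 to 373 in striatum and from 333 through 447 to 539.5 in midbrain, and 10 of 12 midbrain samples exceeded every PFC sample. H2-DMb1 ran from 106 through 131 to 156 in PFC, from 105 through 131 to 139 in striatum and from 117 through 144 to 187 in midbrain, with wide overlap between the regions. H2-Ob ran from 44.1 through 55.7 to 72.1 CPM in PFC, from 48.4 through 57.9 to 64.5 in striatum and from 60.6 through 71.1 to 88.4 in midbrain. The midbrain sample of mouse 6 ranked 6 of 12 for H2-DMa, 2 for H2-DMb1 and 9 for H2-Ob, and that of mouse 11 ranked 2, 1 and 1, at 1.2, 1.32 and 1.24 times the median of the 10 others.

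Ciita was near the floor of detection in most samples. It had 3 counts or fewer in 16 of 35 samples and none in 5, with medians of 0.169 CPM in midbrain, 0.117 in striatum and 0.0789 in PFC (median counts of 7.5, 5 and 3). The exceptions were 2 midbrain samples, mouse 11 with 3.20 CPM (144 counts) and mouse 6 with 2.87 CPM (132 counts), followed by the midbrain of mouse 3 with 0.9403 CPM (44 counts). The same 3 midbrain samples had the highest H2-Aa, H2-Ab1, H2-Eb1 and Cd74.

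Set on a scale that allows genes to be compared, CPM per kilobase of annotated exon, the median level in midbrain was 130 for H2-DMa, 85.9 for H2-DMb1, 74.5 for Cd74, 33.2 for H2-Ab1, 13.2 for H2-Ob, 9.35 for H2-Eb1, 7.58 for H2-Aa and 0.0177 for Ciita. In PFC the order of the median level per kilobase was H2-DMa (102), H2-DMb1 (77.7), Cd74 (23.9), H2-Ob (10.4), H2-Ab1 (8.69), H2-Eb1 (1.06), H2-Aa (0.703) and Ciita (0.00828). By median, the chaperone chains H2-DMa and H2-DMb1 stood above the class II chains in both regions, and H2-Ab1 and H2-Ob changed places between PFC and midbrain. In midbrain the ranges of neighbours in this order overlapped, except those of H2-Aa and Ciita. In PFC the ranges of H2-DMb1 and Cd74, of H2-Ab1 and H2-Eb1, and of H2-Aa and Ciita did not overlap, while those of H2-DMa and H2-DMb1, of Cd74, H2-Ob and H2-Ab1, and of H2-Eb1 and H2-Aa did.

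To ask which members exhibited an effect of brain region, counts of all genes were fitted with region and sex as main effects in edgeR. This fit did not use the pairing of regions by mouse. A main effect of region was found for 7 of the 8 members at an adjusted p under 0.05, against 8.89% of all genes, with Ciita the exception (adjusted p = 0.0905).

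Between midbrain and PFC, 6 members passed the study's criteria (region effect at adjusted p under 0.05, then p under 0.05 and a fold change over 1.2 for the pair), all more highly expressed in midbrain, against 3.24% of all genes in that direction. The largest differences were those of the class II chains and Cd74, with log2 fold changes of 4.29 ± 0.74 (SE) for H2-Eb1 (adjusted p = 0.000175), 4.11 ± 0.77 for H2-Aa (adjusted p = 0.000466), 3.06 ± 0.51 for H2-Ab1 (adjusted p = 0.000103) and 2.83 ± 0.49 for Cd74 (adjusted p = 0.00017). H2-DMa rose by 0.37 ± 0.07 (adjusted p = 0.000374) and H2-Ob by 0.32 ± 0.072 (adjusted p = 0.00323). H2-DMb1 differed by 0.17 ± 0.061, below the minimum fold change, and Ciita by 1.92 ± 0.83, and neither was called. The median log2 fold change was 2.38 over the 8 members and -0.011 over all genes.

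Without the midbrain samples of mice 6 and 11, the same 6 members passed the criteria (2.77% of all genes in that direction), and the differences of the chains and Cd74 were smaller. The log2 fold changes were then 2.59 ± 0.47 for H2-Eb1, 2.44 ± 0.52 for H2-Aa, 1.78 ± 0.27 for H2-Ab1 and 1.6 ± 0.27 for Cd74, with adjusted p-values of 0.000427, 0.00273, 2.66e-05 and 0.000154. H2-DMa (0.36 ± 0.077) and H2-Ob (0.31 ± 0.076) kept their size, whereas that of Ciita came to 0.01 ± 1.7. With mice 1 to 6 alone, only H2-DMa was called (0.34), although the log2 fold changes of H2-Eb1 (4.98) and Cd74 (3.43) were no smaller, and with mice 7 to 12 alone 4 members were called. The shares of all genes called in these smaller fits were 1.31% and 2.1%.

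Between midbrain and striatum, 6 members again passed the criteria with higher expression in midbrain, against 2.98% of all genes, and here 2 samples carried much of the difference. Log2 fold changes were 2.6 ± 0.7 for H2-Aa, 2.6 ± 0.67 for H2-Eb1, 2.19 ± 0.48 for H2-Ab1 and 1.64 ± 0.45 for Cd74, with adjusted p-values of 0.0176, 0.0127, 0.00343 and 0.0219. H2-DMa (0.44 ± 0.068, adjusted p = 3.72e-05) and H2-Ob (0.33 ± 0.071, adjusted p = 0.00274) were smaller but more precise, H2-DMb1 differed by 0.21 ± 0.06 (adjusted p = 0.022) and stayed under the minimum fold change, and Ciita (2.2 ± 0.81) had no region effect. Without the midbrain samples of mice 6 and 11, H2-Aa (0.94 ± 0.48, adjusted p = 0.297) and Cd74 (0.41 ± 0.26, adjusted p = 0.428) no longer passed and H2-Ab1 (0.92 ± 0.25, adjusted p = 0.0252) and H2-Eb1 (0.92 ± 0.44, adjusted p = 0.244) did, so 4 members were called beside 2.52% of all genes. Without the midbrain sample of mouse 6 alone, 6 were called (2.67% of all genes), and with mice 1 to 6 alone only H2-DMa was (0.52), beside 1.02%. With the mouse as a block, 6 members were called (3.47% of all genes), but the adjusted p for the pair was 0.16 for H2-Aa, 0.169 for H2-Eb1 and 0.161 for Cd74.

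Between striatum and PFC, H2-Eb1 (1.69 ± 0.68), H2-Aa (1.51 ± 0.69) and Cd74 (1.19 ± 0.46) passed the criteria with higher expression in striatum, against 2.31% of all genes, and H2-Ab1 (0.87 ± 0.47) did not. No member, against 0.391% of all genes, had an adjusted p under 0.05 for this pair in edgeR (0.287, 0.383 and 0.268 for those called). Without the midbrain samples of mice 6 and 11, H2-Ab1 was called as well, with 2.11% of all genes, and Cd74 reached an adjusted p of 0.0248. Without mouse 4 none passed (1.76% of all genes did), with log2 fold changes of 1.35 for H2-Eb1, 1.18 for H2-Aa and 0.95 for Cd74, and with the mouse as a block 2 passed (3.67%). H2-DMa (-0.07 ± 0.07), H2-DMb1 (-0.05 ± 0.061) and H2-Ob (-0.01 ± 0.072) did not differ between striatum and PFC beyond their error.

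**Figure D2:**
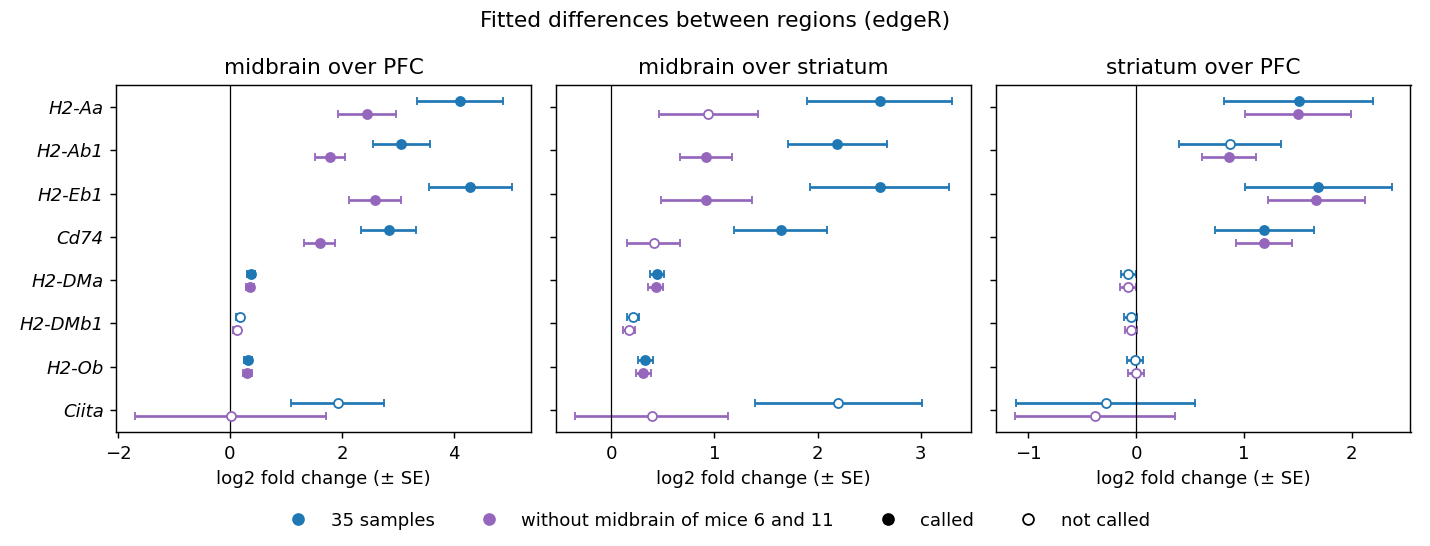
Log2 fold change (horizontal axis, bars ± SE) of the 8 transcripts for each pair of regions, fitted over 35 samples and without the midbrain samples of mice 6 and 11; filled points passed the study's criteria. For H2-Eb1 the difference between midbrain and PFC was 4.29 with and 2.59 without these samples, and for H2-DMa 0.37 and 0.36.

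The direction between midbrain and PFC did not depend on single mice. Within the 11 mice with both regions, H2-Aa, H2-Ab1, H2-Eb1, Cd74 and H2-DMa were higher in midbrain in 11 of 11, H2-DMb1 and H2-Ob in 10 and Ciita in 6. For H2-Ab1 the difference within a mouse, on the log2 scale, ran from 0.31 in mouse 1 through a median of 1.48 to 6.27 in mouse 6, and for H2-DMa from 0.12 through 0.38 to 0.49. Between midbrain and striatum the class II chains were less even: H2-Aa and H2-Eb1 were higher in midbrain in 9 of 12 mice and H2-Ab1 and Cd74 in 10, whereas H2-DMa, H2-DMb1 and H2-Ob were higher in 12 of 12. The median log2 difference was 1.65 for H2-Aa, 1.63 for H2-Eb1, 1.37 for H2-Ab1, 0.78 for Cd74, 0.39 for H2-DMa, 0.31 for H2-Ob and 0.24 for H2-DMb1.

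Different mice were high in different regions. Mouse 6, the highest of 12 in midbrain for H2-Aa, H2-Ab1, H2-Eb1 and Cd74, ranked 8, 8, 11 and 12 for them in striatum and 11, 10, 11 and 10 of 11 in PFC. In striatum mice 4 and 9 took the upper ranks 1 and 2 for each of these transcripts (H2-Ab1 at 82.3 and 97.6 CPM), although their midbrain values (85.1 and 78.6) lay near the midbrain median. In PFC mouse 7 was highest for H2-Aa, H2-Ab1 and H2-Eb1 and mouse 11 for Cd74. Over mice, the Spearman correlation of a transcript between midbrain and PFC, as deviations from the mean of region and sex (n = 11), was -0.25 for H2-Aa, -0.15 for H2-Ab1, -0.08 for H2-Eb1 and 0 for Cd74, and 0.88 for H2-DMa. Between midbrain and striatum (n = 12) it was 0.06, 0.08, -0.13 and 0.07 for the same 4, and 0.03 for H2-DMa. The regions compared in this way share the mouse.

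**Figure D3:**
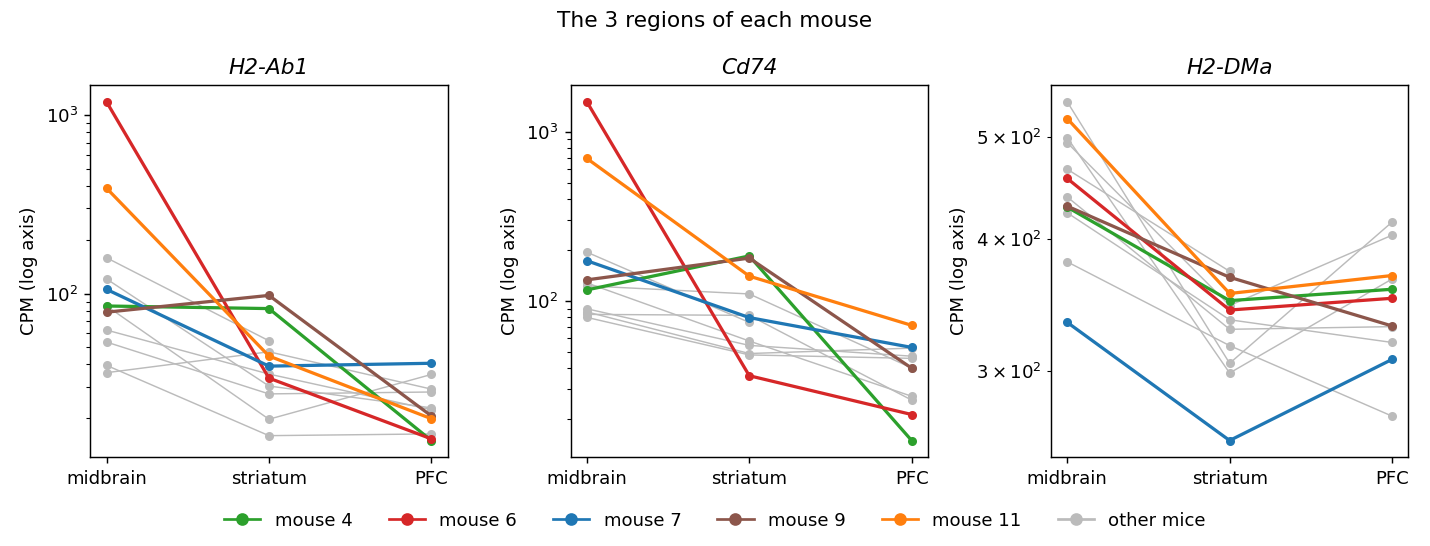
CPM (logarithmic axes) of H2-Ab1, Cd74 and H2-DMa in the 3 regions of each mouse, with a line per mouse and the mice named in the text in color. The lines of H2-Ab1 and Cd74 cross between regions, with mouse 6 first in midbrain and 10 of 11 in PFC, whereas all lines of H2-DMa fall from midbrain to striatum.

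The spread between midbrain samples split the members into the same sets. Among the 8093 genes with a mean of at least 10 CPM in midbrain, the SD of log2 CPM had a median of 0.22. It was 1.8 for H2-Aa, 1.79 for H2-Eb1, 1.43 for H2-Ab1 and 1.31 for Cd74, ranks 8, 9, 12 and 15 from the largest. It was 0.2 for H2-DMa, 0.17 for H2-DMb1 and 0.15 for H2-Ob, with 38.5%, 29.8% and 20.9% of these genes having a smaller SD. The chains also spread widely elsewhere: the SD of H2-Aa was 1.33 in striatum and 1.63 in PFC, and that of H2-Ab1 0.76 and 0.48.

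Whether the spread itself differed between regions was tested with limma on the absolute deviations from the group means. No member had an adjusted p under 0.05 for any pair of regions, as against 1.99% of all genes for midbrain and PFC and 0.801% for midbrain and striatum. At an unadjusted p under 0.05 (4.72% and 9.9% of all genes, larger in midbrain, for the respective pairs), H2-Ab1 spread more in midbrain than in PFC (mean deviation 1.1 and 0.38 on the log2 scale, limma adjusted p = 0.119) and H2-Ab1 and Ciita more in midbrain than in striatum (limma adjusted p of 0.282 and 0.365). Without the midbrain samples of mice 6 and 11, the difference in mean deviation of H2-Ab1 between midbrain and PFC fell from 0.72 to 0.19.

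**Figure D4:**
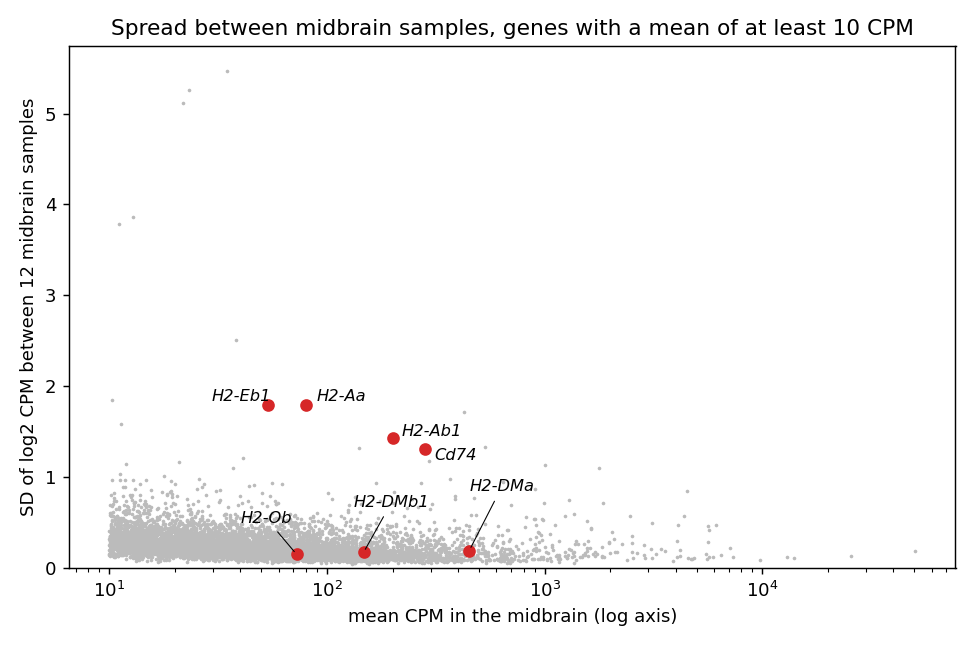
SD of log2 CPM between the 12 midbrain samples (vertical axis) against mean CPM in midbrain (logarithmic axis); each grey point is 1 of 8093 genes and red points are the members with a mean of at least 10 CPM. H2-Aa, H2-Eb1, H2-Ab1 and Cd74 lie between 1.31 and 1.8, and H2-DMa, H2-DMb1 and H2-Ob between 0.15 and 0.2.

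The transcripts that spread did so together. Over the 12 midbrain samples Spearman's rho of log2 CPM was between 0.79 and 1 for the 6 pairs among H2-Aa, H2-Ab1, H2-Eb1 and Cd74 (Pearson's r between 0.93 and 0.99), and r stayed between 0.7 and 0.99 when the 2 samples farthest from the median were left out. H2-Ab1 and H2-Eb1 ranked the midbrain samples identically. Over all 35 samples, as deviations from the mean of region and sex, rho was between 0.69 and 0.96 for these pairs, and within single regions r was between 0.69 and 0.97 in striatum and between 0.46 and 0.93 in PFC. The points of a region share no mouse, but whether they were dissected or sorted together is not given in the sources used here.

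H2-DMa, H2-DMb1 and H2-Ob did not follow the chains. Of the 12 pairs of one of them with H2-Aa, H2-Ab1, H2-Eb1 or Cd74, rho in midbrain was between -0.21 and 0.38. Among themselves rho was between 0.4 and 0.55, and r between -0.14 and 0.55 without the 2 samples farthest from the median. Ciita ranked with the chains, with rho between 0.73 and 0.92 in midbrain, highest with Cd74, although its low counts make most of its ranks uncertain.

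**Figure D5:**
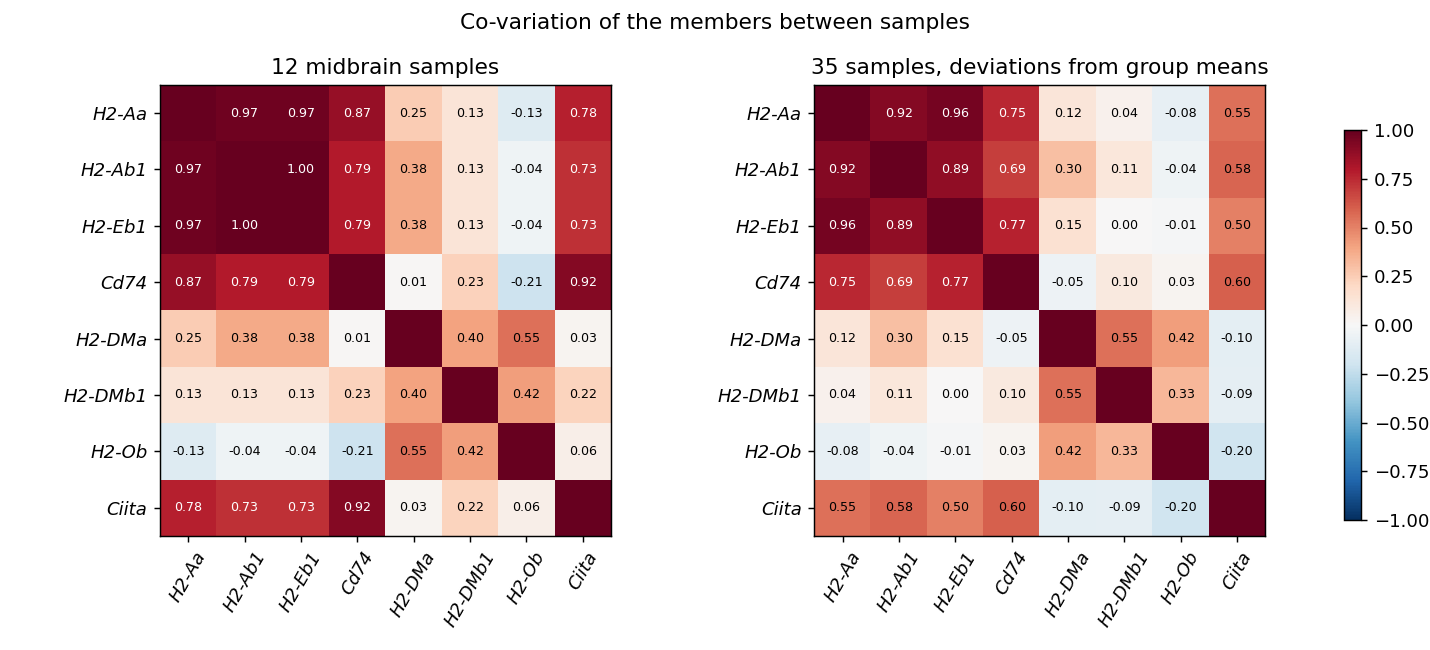
Spearman's rho of log2 CPM for each pair of members, over the 12 midbrain samples (left) and over 35 samples as deviations from the mean of region and sex (right), with the color scale from -1 to 1. H2-Aa, H2-Ab1, H2-Eb1, Cd74 and Ciita form 1 block (0.73 to 1 in midbrain), apart from H2-DMa, H2-DMb1 and H2-Ob.

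Ratios of the chains and Cd74 to one another varied less between midbrain samples than their levels did (SD of log2 values between 0.35 and 0.47 for the ratios and between 1.31 and 1.8 for the levels). The ratio of H2-Aa to H2-Eb1 CPM was 1.5 in the midbrain of mouse 6, 1.5 in that of mouse 11, and ran from 0.871 through 1.51 to 2.16 over midbrain samples, while H2-Aa itself differed by 106-fold between the highest and the lowest. The ratio of H2-Aa to H2-Ab1 moved more, from 0.153 through 0.322 to 0.491 in midbrain with the top value in mouse 6, and its median was 0.272 in striatum and 0.132 in PFC. The ratio of Cd74 to H2-Ab1 had medians of 1.62, 1.97 and 1.39 in midbrain, striatum and PFC. The ratio of H2-Ab1 to H2-DMa, a chain to its loading factor, ran from 0.0729 to 2.6 in midbrain.

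The genes whose pattern over the 35 samples was most like the mean standardized log2 CPM of H2-Aa, H2-Ab1, H2-Eb1 and Cd74 were, among 12254 genes, Vim (rho 0.9), Clec7a (0.89), Cd36 (0.88), Cybb (0.86) and Lgals3 (0.85), which encode an intermediate filament, a receptor for beta-glucans, a scavenger receptor, a subunit of the phagocyte oxidase and a galectin. Region was left in for this choice, which favors genes highest in midbrain, like the class II chains and Cd74. Each was highest on average in midbrain: Clec7a had 26.4 ± 8.15 CPM there, 12.0 ± 4.31 in striatum (SD, n = 12 each) and 5.10 ± 2.09 in PFC (SD, n = 11). After the mean of region and sex was taken out, the 5 most alike were Clec7a (0.75), Rab7b (0.74), Igkc (0.72), Cybb (0.69) and Wfdc17 (0.69). In the midbrain of mouse 6, Cybb had 77.9 CPM (5.62 to 21.1 in the 10 other midbrain samples), Igkc, an immunoglobulin light chain, 352 (1.07 to 71.4) and Wfdc17 25.5 (1.66 to 4.8). In that of mouse 11 the same 3 had 15.5, 3.04 and 2.67 CPM, inside the range of the others. Clec7a (47.4 and 32.9 CPM in mice 6 and 11, 18.1 to 32.4 in the others) and Lgals3 (23.8 and 22.75, against 9.82 to 18.3) lay above the others in both.

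Over all regions no member passed p under 0.05 for sex in edgeR or DESeq2 with a fold change over 1.2 (4.13% of all genes did in edgeR), none had an unadjusted p under 0.05 in edgeR, and the log2 fold changes of males over females ran from -0.1 ± 0.54 for H2-Eb1 to 0.49 ± 0.66 for Ciita. Within midbrain no member was called for sex (4.84% of all genes were), and males differed from females by -0.86 ± 0.63 for H2-Ab1 (edgeR adjusted p = 1), with a male median of 95.3 CPM and a female median of 73.8. That value turned on mouse 6 and mouse 11: in edgeR it was 0.98 (adjusted p = 0.992) without mouse 6 and -1.48 (adjusted p = 0.752) without mouse 11, and each had an unadjusted p under 0.05. Over all regions without the midbrain sample of mouse 6, H2-Ab1 (0.64, edgeR adjusted p = 0.461) and Cd74 (0.6, adjusted p = 0.586) were called higher in males, and without those of mice 6 and 11 H2-Ab1 (0.44, adjusted p = 0.592). No gene in the table had an interaction of region and sex at adjusted p under 0.05 by edgeR (2.98% at unadjusted p under 0.05, no member among them), and DESeq2 called no member.

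Of 8 genes for processing and turnover, 3 were called in midbrain over PFC, against 3.24% of all genes, and 2 in midbrain over striatum, against 2.98%. In midbrain over PFC Ifi30, the lysosomal thiol reductase (log2 fold change 0.44 ± 0.096, adjusted p = 0.00212), Ctss, the protease that trims the invariant chain (0.32 ± 0.049, adjusted p = 1.8e-05), and Ctsl (0.29 ± 0.058, adjusted p = 0.000915) rose in midbrain, and Ctsb, Ctsd, Lgmn, March1 and March8 did not pass. The median over these 8 was 0.06. The remaining class II genes in the table, H2-DMb2 (0.31 ± 0.11, adjusted p = 0.0875) and H2-Oa (0.12 ± 0.073, adjusted p = 0.414), did not pass, although H2-DMb2 was called in both midbrain comparisons with the mouse as a block (0.32 and 0.32, edgeR adjusted p = 0.0528 and 0.036).

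None of the 7 genes for the factors at class II promoters (Rfx5, Rfxap, Rfxank, Creb1, Nfya, Nfyb, Nfyc) was called for any pair of regions. Their log2 fold changes of midbrain over PFC ran from -0.09 ± 0.11 for Rfx5 to 0.09 ± 0.17 for Nfya. Among genes that act upstream of Ciita, the interferon gamma receptor chains Ifngr1 and Ifngr2, the kinases Jak1 and Jak2, and Irf1 and Socs1 were not called for any pair of regions. With the mouse as a block, Irf1 was called higher in midbrain than in striatum (0.32, edgeR adjusted p = 0.0392) and lower in striatum than in PFC (-0.54, adjusted p = 0.0044). Of 5 genes for ligands and receptors that stimulate or restrain T cells, only Cd274, an inhibitory ligand, was called. It differed by 0.45 ± 0.14 in midbrain over PFC (edgeR adjusted p = 0.0459), where 3.24% of all genes were called higher. The costimulation genes Cd80, Cd86, Cd40 and Icosl were not called. With the mouse as a block, Icosl was called in midbrain over PFC (0.35, edgeR adjusted p = 0.00632) and Cd80 in midbrain over striatum (0.3, adjusted p = 0.00159).

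Of 9 genes of MHC class I presentation, 5 passed the criteria in midbrain over PFC (3.24% of all genes) and 5 in midbrain over striatum (2.98%). In midbrain over PFC the log2 fold change was 0.74 ± 0.13 for H2-D1 (adjusted p = 0.000218), 0.47 ± 0.11 for H2-K1, 0.38 ± 0.1 for Tap1 and 0.29 ± 0.086 for B2m. Nlrc5, the class I counterpart of Ciita, rose by 1.36 ± 0.33 (edgeR adjusted p = 0.00596). The other 4 did not pass, with -0.01 ± 0.11 for Tap2, -0.03 ± 0.052 for Tapbp, 0.04 ± 0.072 for Psmb8 and -0.06 ± 0.099 for Psmb9.

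The midbrain samples of mice 6 and 11 differed from each other in what accompanied their class II transcripts. In mouse 11, 7 of the 9 class I genes had their highest midbrain value, with H2-D1 at 3358 CPM (1062 to 1771 in the 10 other midbrain samples), Tap1 at 86.5 (40.9 to 62.7) and Nlrc5 at 8.62 (0.662 to 5.12). In mouse 6 H2-D1 (1878 CPM) and H2-K1 (638.4 CPM) also lay above the 10 others, whereas Tap1 (38.98) lay below them and Nlrc5 (1.67) among them. Both samples kept their microglia markers, with sums over 10 genes of 40890 and 42260 CPM against 39390 to 45640.

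Markers of other cells that can carry class II were mostly present at low levels, and some were high in the midbrain of mouse 6. The sum of 9 border macrophage markers was 216.5 CPM in the midbrain of mouse 6, 82.9 in that of mouse 11 and 75.8 to 125 in the 10 others, while its range was 98.2 to 182.5 in striatum and 86.4 to 130 in PFC. Stab1 made up most of its median, with 85.8 of 96.9 CPM in midbrain, 144 of 148 in striatum and 103 of 110 in PFC. In the midbrain of mouse 6 Stab1 had 91.6 CPM and in that of mouse 11 79.9, inside the range of the others (73.3 to 118). The ranges in striatum and PFC thus mostly reflect Stab1. Of these markers, 4 were highest in mouse 6, Ms4a7 at 97.9 CPM (0.209 to 4.79 in the others), Mrc1 at 16.4 (0.86 to 8.51), Pf4 at 5.41 (0.0417 to 1.89) and Cbr2 at 1.59 (0 to 1.41), and in mouse 11 Ms4a7 had 7 counts, Pf4 3, Cd163 and Siglec1 none. Of the markers of border macrophages, Cd163 was at 0 counts in 25 of 35 samples and Cd209f in 26. Over the 12 midbrain samples, rho with H2-Ab1 was 0.79 for F13a1, 0.56 for Mrc1 and 0.55 for Ms4a7. It was 0.52 for Pf4 and Cbr2, 0.47 for Cd163, 0.38 for Siglec1, 0.02 for Cd209f and -0.23 for Stab1. Low counts make many of these ranks uncertain. The part of these single markers in the class II values, of mouse 6 or of the other samples, was not tested.

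Markers of lymphocytes, dendritic cells and monocytes showed no rise shared by both samples. The T cell markers summed to 7.72 CPM in mouse 6, most of it Cd4 (292 counts) with Trac at 0 counts, to 0 in mouse 11, and to between 0.303 and 1.18 in the others. The 10 dendritic cell markers summed to 57.5 and 52.1 CPM in mice 6 and 11 and to 44.3 to 72.7 in the others, with Clec9a at 27 counts in mouse 6 and none in mouse 11. The 7 B cell markers summed to 682 and 833 CPM, against 656 to 790 in the others, with Ighm making up most of the sum in midbrain and Ms4a1 at 12 counts in mouse 6 and 0 in mouse 11. The 6 monocyte markers summed to 6.78 and 2.64 CPM, against 1.33 to 8.805, with Ly6c2 at 3.63 CPM in mouse 6 and up to 1.24 in the others. Between all midbrain and PFC samples, Ms4a7 (log2 fold change 5.39 ± 1.1, edgeR adjusted p = 0.0013), Itgax (1.66 ± 0.22, adjusted p = 1.57e-06) and Cd79a (2.02 ± 0.48, adjusted p = 0.00586) were called higher in midbrain, also with the mouse as a block. Of 9 border macrophage, 10 dendritic cell and 7 B cell markers, 1, 2 and 1 were called higher and 0 lower. The share of all genes called higher was 3.24%. Other markers of these lists had a lower median in midbrain than in PFC, among them Mrc1 (2.56 and 5.37 CPM), Flt3 (0.632 and 0.876) and Ighm (633 and 688). Cd4 (4.27 ± 1.2, adjusted p = 0.0263) was called on the sample of mouse 6, since no other midbrain sample had over 16 counts, and was not called with the mouse as a block (1.83, edgeR adjusted p = 0.523). Of the 6 monocyte markers, Ly6c2 (3.12 ± 1.2, adjusted p = 0.151, not called with the block) and Itgal (2.59 ± 0.81, adjusted p = 0.046) were called higher and Ccr2 (-1.59 ± 0.29, edgeR adjusted p = 0.000238) lower.

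A covariate was made by adding up the log2 CPM of the border macrophage, dendritic cell, B cell and monocyte markers, gene by gene. It weights all of them alike and does not single out those that were high in mouse 6. With it, the log2 fold change of midbrain over PFC was 2.89 for H2-Eb1 and 2.15 for H2-Ab1. The members called were then 6 for midbrain over PFC (2.43% of all genes), 6 for midbrain over striatum (2.41%) and 0 for striatum over PFC (1.7%).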

How the data were processed

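RNA was extracted from sorted microglia, and Smart-Seq HT libraries were sequenced as paired reads. Per the labels, the authors trimmed reads with Trimmomatic and aligned them with HISAT2 to GRCm38. The deposited values are raw counts per gene in a table that the authors had filtered for low expression; the counting tool and its use of strand are not given in the sources used here. Mates may have been counted separately. Gene names came from GENCODE M21 (21103 of 21236 genes).

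Groups came from the labels. Counts were scaled with TMM factors and fitted with region and sex in edgeR 4.0.16 (quasi-likelihood, robust), with adjusted p by Benjamini-Hochberg over all genes. Log2 CPM used a prior count of 2, and spread was tested with limma 3.58.1. On simulated data the spread test called more unchanged genes than its threshold allows. Same-numbered regions come from the same mouse, and their deviations correlated at a mean r of 0.22 (27 of 34 pairs over 0.1).

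The 8 members were always named, other listed genes where called, defining a cell type or near 0, and the 5 most alike on each scale. Members and lists were chosen with earlier results of these data known. Results of some listed genes are not reported here. Alternatives covered DESeq2 1.42.0, voom, the mouse as a block, other filters, thresholds and scalings, subsets of mice and a marker covariate. Total counts of 37680501 to 54131421 per sample set the floor of detection.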

Additional observations from a re-analysis of the deposited data

Results flagged for a closer look

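In each group of region and sex (5 or 6 samples), the gap in CPM between the most extreme sample and its neighbour was compared with the range of the group. Dixon's criterion was used, which chance alone meets in about 1 of 20 groups of normally distributed values. Of 48 groups, 12 met it. On CPM high values stand farther apart than on the log2 scale used for spread, so this count cannot be set against that rate. In the midbrain of females mouse 6 stood apart with 582.6 CPM of H2-Aa (next highest 41.61), 1187 of H2-Ab1 (120.7), 388.9 of H2-Eb1 (27.01), 1498 of Cd74 (127.6) and 2.869 of Ciita (0.1873). In the midbrain of males mouse 11 stood apart with 135.5 CPM of H2-Aa (52.89), 389.5 of H2-Ab1 (158.6), 693.7 of Cd74 (193.8) and 3.199 of Ciita (0.9403). In the striatum of females mouse 4 stood apart with 32.08 CPM of H2-Aa (9.575), 82.31 of H2-Ab1 (35.35) and 22.3 of H2-Eb1 (6.187). The members vary together, so these flags are not independent of each other.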

How the results depend on the processing

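Of 1310 values under alternatives, 1185 kept their direction and side of the threshold, 36 lost and 14 gained a call, 57 changed sign and 18 counts or other values moved. Causes were not tested. Leaving out each mouse gave 6 to 7 members with a region effect, 6 to 6 called for midbrain over PFC and over striatum, 0 to 4 for striatum over PFC (0 without mouse 4), 0 to 1 for sex, 0 to 3 for sex within regions (3 without mouse 6 and 3 without mouse 11), 0 for the interaction and the spread, and a co-variation of 0.79 to 0.86. Mice 1 to 6 alone gave 1 member with a region effect, 1 for midbrain over PFC, 1 for midbrain over striatum and 0 for striatum over PFC, and mice 7 to 12 alone gave 4 with a region effect, 1 for striatum over PFC and 4 for sex. For striatum over PFC, 0 were called by adjusted p and 0 with the marker covariate. For sex, 2 were called without the midbrain sample of mouse 6 and 1 without those of mice 6 and 11, both settings chosen after seeing the data. The share of all genes called is not given for region effects or sex calls in subsets of mice or samples. Nor is it given for the other counts with a mouse left out, except calls between regions without mouse 4. These counts therefore cannot be set against a background.

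The log2 fold change of striatum over PFC changed sign for H2-Ob with the mouse as a block (0.01), with voom (0.01), with the marker covariate (0.01) and in mice 7 to 12 (0.02), for Ciita with voom (0.2) and for mice 1 to 6 alone (1.29), and for H2-DMa (0.03) and H2-DMb1 (0.07) when only mice 7 to 12 were kept. That of males over females changed sign for H2-Aa and H2-Eb1 with voom (0.31 and 0.42), with the marker covariate (0.15 and 0.2), in mice 7 to 12 (1.52 and 1.47), without the midbrain of mouse 6 (0.75 and 0.79) and of mice 6 and 11 (0.51 and 0.56), for H2-DMb1 in mice 7 to 12 (0.03), and for H2-Ab1 and Cd74 in mice 1 to 6 (-0.62 and -0.71). The difference in mean deviation changed sign without the midbrain of mouse 6 for H2-Aa (-0.34), H2-Eb1 (-0.11) and Ciita (-0.04) against PFC and Cd74 (-0.08) against striatum, and without mice 6 and 11 for H2-Aa (-0.43), H2-Eb1 (-0.2), Cd74 (-0.13) and Ciita (-0.19) against PFC and H2-Eb1 (-0.05) and Cd74 (-0.27) against striatum.

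Leaving out mice, log2 fold changes that changed sign ran from -0.05 to 0.03 (H2-Ob) and -0.61 to 0.12 (Ciita) for striatum over PFC, from -0.32 to 0.66 (H2-Aa), -0.14 to 0.62 (H2-Ab1), -0.31 to 0.68 (H2-Eb1) and -0.3 to 0.53 (Cd74) for males over females, and for the difference in mean deviation from -0.18 to 0.31 (H2-Aa) and -0.01 to 0.54 (Ciita) against PFC and -0.08 to 0.58 (Cd74) against striatum. With the mouse as a block, the count of calls for midbrain against either region stayed at 6, while H2-Aa lost its call for striatum over PFC (1.26). The filter of 10 counts in every sample removed Ciita, for which depth is the limit.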
